A study of Mus musculus with 24 samples.

Results

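A set of 10 genes of bile acid synthesis and its feedback control were followed in mouse liver: the enzymes Cyp7a1, Cyp7b1, Cyp8b1, Cyp27a1, Hsd3b7, Acox2, Baat and Slc27a5, the bile acid receptor FXR (gene Nr1h4) and its target SHP (gene Nr0b2). They were chosen by name, for their place in the pathway, and all 10 were among the 19287 genes tested. They were read by 12 of the 41174 probes on the array. Earlier results of these data were known when these members and the further gene lists below were chosen. The livers were of mice labelled dKO, which lack the forkhead factors Foxa1 and Foxa2, and of mice labelled WT. The 6 groups, of 4 arrays each, were dKO and WT untreated females, dKO and WT treated females, and dKO and WT treated males. Treated mice had received the carcinogen diethylnitrosamine (DEN) at 20 mg/kg when 14 to 15 days old, followed by 8 injections of TCPOBOP, an activator of the nuclear receptor CAR that promotes liver tumours, at 3 mg/kg. No untreated males were among the samples. The driver of the Foxa1 and Foxa2 deletion, the strain and the age at sampling were not stated in any source used. Untreated livers carry the same tissue label, liver tumour, as treated ones.

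Bile acids are made from cholesterol in hepatocytes. In the classic pathway Cyp7a1 takes the first and rate-limiting step and Cyp8b1 directs the product to cholic acid. In the alternative pathway Cyp27a1 oxidises the side chain first and Cyp7b1 then acts on the ring. Hsd3b7 serves both pathways on the ring, Acox2 shortens the side chain in the peroxisome, and Slc27a5 and Baat join the acid to taurine or glycine. Bile acids bind FXR, which induces SHP, and SHP lowers transcription of Cyp7a1 and Cyp8b1.

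The sequences below show what the arrays measured where this bears on a result. Cyp7a1 had a downstream and an upstream probe, which did not give the same genotype difference in treated males. Their positions in mm9 are chr4:6193456-6193515 and chr4:6195632-6196238, both on the minus strand, and the upstream probe of 60 bases is spread over 607 bases of genome. The Acox2 probe, at chr14:9058288-9062677 on the minus strand, is likewise spread over 4390 bases, and it read the member with the most precise values.
Cyp7a1 upstream probe: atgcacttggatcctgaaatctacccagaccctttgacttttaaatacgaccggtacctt
Acox2 probe: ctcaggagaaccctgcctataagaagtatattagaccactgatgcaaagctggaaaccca

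Levels are log2 signals relative to each array's 75th percentile, so 0 is the level of the probe at that percentile, and differences are on the log2 scale with their SE, estimated by limma for all genes together. A difference was called where its Benjamini-Hochberg adjusted p was under 0.05. Foxa1 was not well above background on any dKO array and was at least 6.36-fold lower in untreated dKO females, 7.51-fold in treated dKO females and 5.99-fold in treated dKO males. Foxa2 was also lower in those groups, with fitted log2 differences of -8.44, -10.07 and -7.99. It was well above background on 3, 2 and 2 of their 4 arrays, so these sizes rest in part on arrays at background and are not exact. The median of all genes moved by at most 0.11 in any comparison. The extraction notes cover liver samples as well as sorted cells and do not say which applied to a given array. In bulk RNA of either kind, fewer cells of a type and less RNA per cell cannot be told apart.

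The fourth array of every group lay close to a mixture of the other 3, and this limits all tests below. Over 13535 genes bright on all arrays, replicate 4 lay between the lowest and highest of replicates 1 to 3 for 71.6% to 85.4% of genes in the 6 groups. For the other 18 arrays the share was 22.4% to 62.8%. Fitted as a weighted sum of the other 3, replicate 4 took weights of 0.18 to 0.55, with an R squared of 0.69 to 0.85, against 0.01 to 0.56 for the other arrays. For the members, replicate 4 was the highest or lowest array in 3 of 60 combinations of gene and group and lay between the others in 57. The labels do not say how these samples were made, and nothing in them states that replicates are separate animals. If replicate 4 holds RNA of the other samples, 4 arrays are not 4 independent samples and p-values over 24 arrays are too small. Each call is therefore given with its result over the 18 arrays of replicates 1 to 3, a fit chosen after this was seen. "Fell" and "rose" are kept for differences called in both fits, and "lower" or "higher" stands with the values otherwise.

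Array position and genotype cannot be told apart in treated mice. Treated WT males lay at position 1 of their slides and treated WT females at positions 1 and 2, whereas treated dKO males lay at positions 3 and 4 and treated dKO females at position 4. Both untreated groups lay at positions 2 and 3, so position and treatment cannot be told apart in dKO females either. Replicate 2 of the treated dKO females stood apart: it was the lowest of its group in 9 of 10 members, and its mean over 16 hepatocyte markers was 5.30, against 6.45 to 7.45 on the other 23 arrays. Differences of members that it moved by over 1.5 times, or whose call it changed, are also given without it where they are described.

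**Figure D1:**
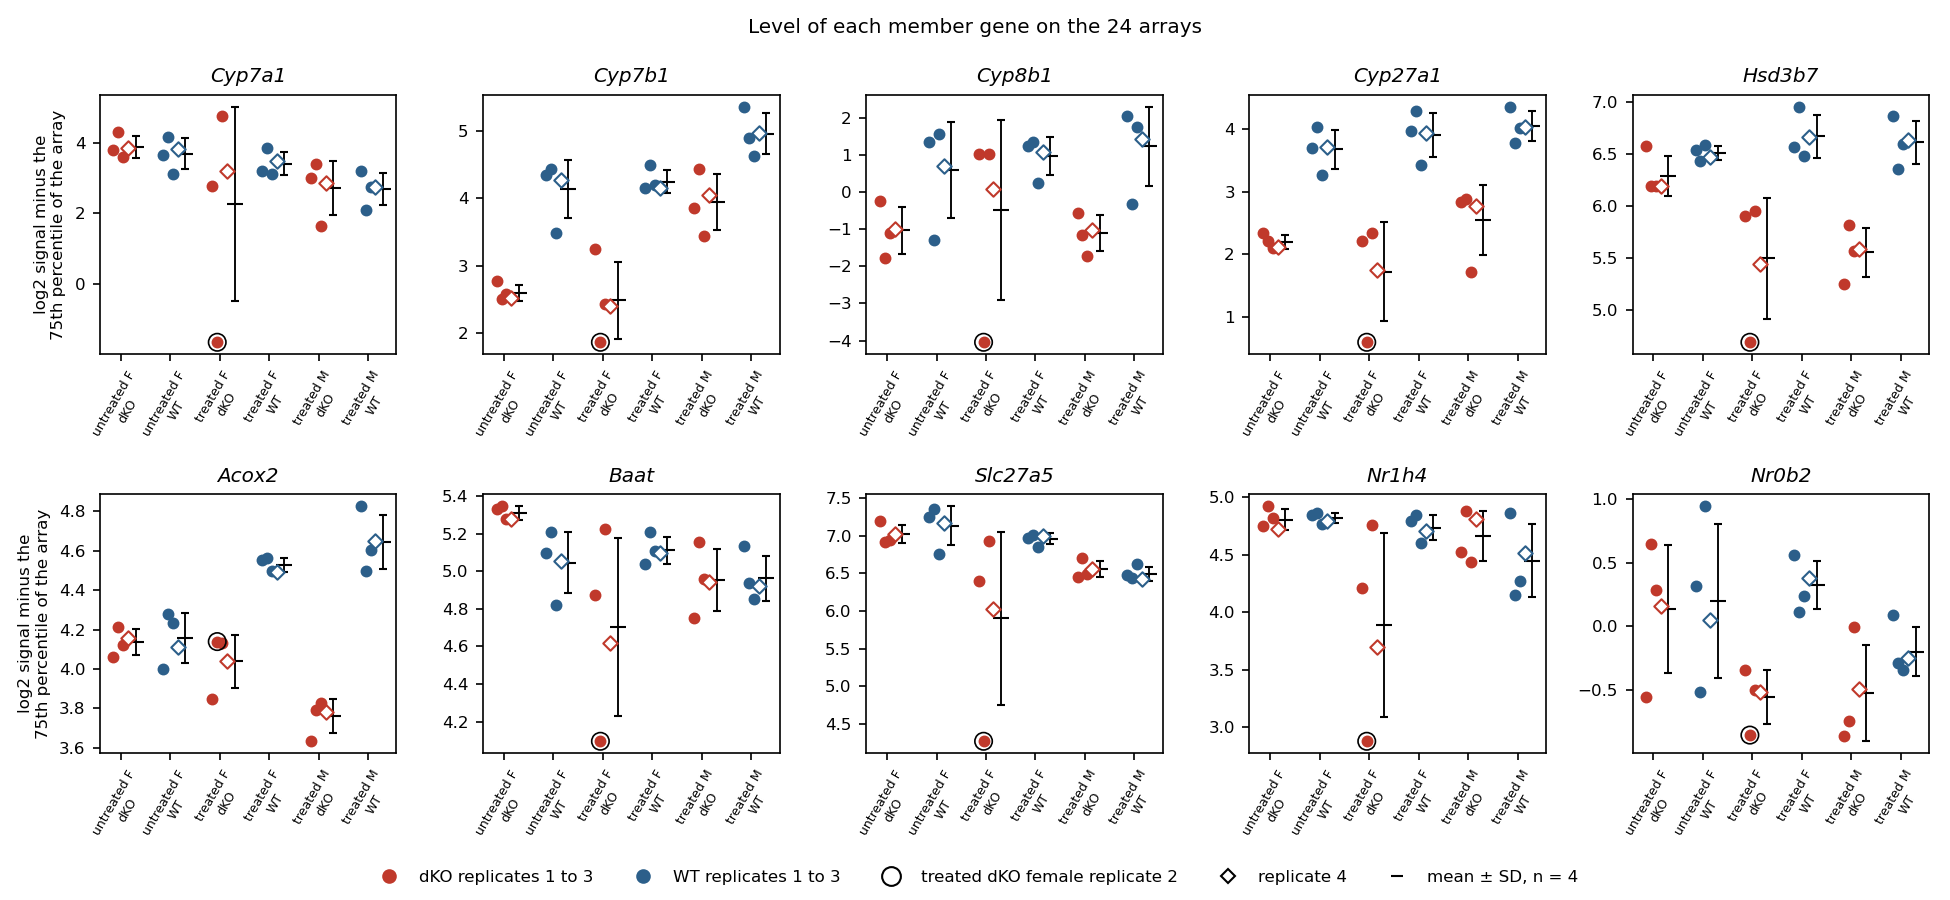
Level of each member (log2 signal minus the array's 75th percentile) on all arrays of the 6 groups. Dots are replicates 1 to 3, diamonds replicate 4, the circle marks treated dKO female replicate 2, and bars are mean ± SD of 4 arrays. Cyp7b1 and Cyp27a1 of dKO livers lie below those of the matching WT livers in all 3 settings, and diamonds lie inside the span of the dots in nearly all panels.

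Loss of Foxa1 and Foxa2 went with lower levels of the alternative pathway enzymes, of Hsd3b7 and of Acox2 in treated livers. In treated females 7 of 10 members were called lower and 0 higher over 24 arrays, where 16.3% of all genes were called lower and 13.5% higher. Over 18 arrays 4 members fell, namely Cyp27a1, Cyp7b1, Hsd3b7 and Acox2, where 3.43% of all genes were called lower. In treated males 5 of 10 were called lower and 0 higher, where 10.8% of all genes were called lower and 14.5% higher. Over 18 arrays 3 of these fell, namely Cyp27a1, Hsd3b7 and Acox2, where 4.36% of all genes were called lower. In untreated females 2 of 10 were called lower and 0 higher, against 4.59% lower and 5.16% higher over all genes, and over 18 arrays limma called 0, with 2 at an unadjusted p under 0.05. The median difference of the 10 members was -1.10 in treated females, -0.61 in treated males and -0.09 in untreated females, beside -0.07, 0.05 and -0.04 over all genes. With array position as a covariate, 0 of the 7 calls in treated females and 1 of the 5 in treated males were left, while both in untreated females were. All 14 of these calls had the same sign on every slide that held both groups (2 slides for females of either treatment and 3 for males). The calls were made on these same arrays, so this is no separate test of them. Some differences that were not called also kept their sign on those slides, such as Cyp8b1 in females of either treatment.

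**Figure D2:**
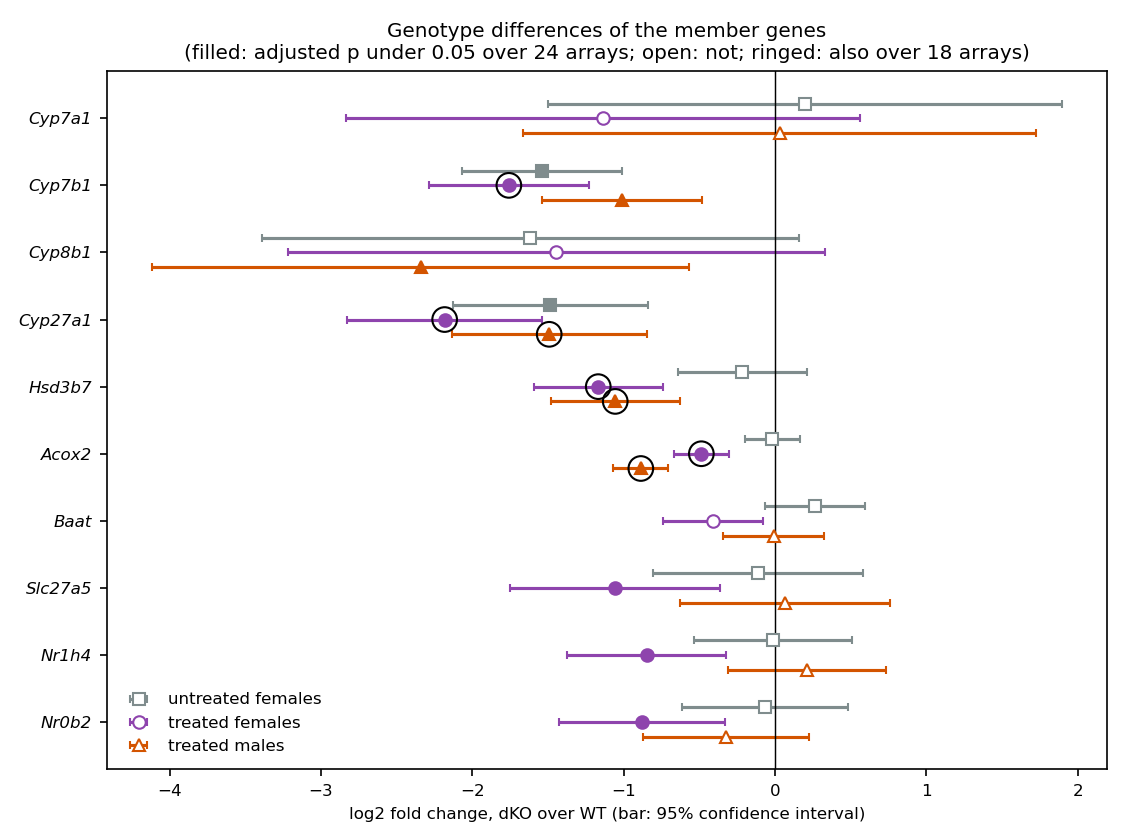
Log2 fold change of each member, dKO over WT, with its 95% confidence interval, for untreated females and for treated mice of each sex. Filled symbols were called over 24 arrays and rings mark those also called over 18 arrays, which are Cyp27a1, Hsd3b7 and Acox2 in both treated sexes and Cyp7b1 in treated females.

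Cyp27a1, the mitochondrial enzyme that opens the alternative pathway, fell in both treated sexes. In treated females it stood at 2.21, 0.60, 2.34 and 1.75 in dKO livers and at 3.97, 4.29, 3.43 and 3.94 in WT livers. Treated males had levels of 2.84, 2.89, 1.72 and 2.77 in dKO livers and at 4.36, 3.78, 4.02 and 4.03 in WT livers. All dKO arrays were below all WT arrays in both sexes. It fell by 2.18 ± 0.31 on the log2 scale in treated females (adjusted p = 4.52e-05) and by 1.49 ± 0.31 in treated males (adjusted p = 0.00128). Over 18 arrays the adjusted p was 0.00766 in treated females and 0.0300 in treated males. In untreated females it was at 2.34, 2.21, 2.10 and 2.12 in dKO livers, against 3.70, 4.03, 3.26 and 3.71 in WT livers. These groups did not overlap either, with a difference of -1.48 ± 0.31 (adjusted p = 0.00379), which was not called over 18 arrays (adjusted p = 0.125). In treated mice with array position as a covariate the differences were -2.14 and -1.45 in females and males, with adjusted p of 0.212 and 0.392. In the order of group levels, the 3 WT groups overlapped each other, as did the 3 dKO groups. Between them, the means of untreated WT females and treated dKO males differed by 1.12. The lowest array of the former was at 3.26 and the highest of the latter at 2.89.

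Cyp7b1, the microsomal enzyme that acts next in that pathway, followed a similar order. In treated females it stood at 3.25, 1.87, 2.43 and 2.40 in dKO livers and at 4.15, 4.50, 4.20 and 4.15 in WT livers. It fell by 1.76 ± 0.25 (adjusted p = 5.44e-05, and 0.00828 over 18 arrays), and the groups did not overlap. Male levels after treatment were 3.86, 4.44, 3.44 and 4.05 in dKO livers and at 5.36, 4.89, 4.62 and 4.97 in WT livers. The male difference was -1.01 ± 0.25 (adjusted p = 0.00594), again without overlap, and was not called over 18 arrays (adjusted p = 0.0738). In untreated females it was at 2.78, 2.51, 2.58 and 2.52 in dKO livers and at 4.35, 4.44, 3.49 and 4.27 in WT livers. That difference was -1.54 ± 0.25 (adjusted p = 0.000481), with an adjusted p of 0.0509 over 18 arrays. With array position as a covariate the treated differences were -1.63 in females (adjusted p = 0.250) and -0.88 in males (adjusted p = 0.555). Cyp7b1 was also the member that separated the sexes most: treated WT males were above all other groups and treated dKO males above both dKO female groups, without overlap.

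Cyp7a1, the rate-limiting enzyme of the classic pathway, was not called in any genotype comparison. In treated dKO females it spanned nearly the whole range of the data, at 2.78, -1.65, 4.76 and 3.22, against 3.19, 3.84, 3.12 and 3.50 in treated WT females. The difference of -1.14 ± 0.81 (adjusted p = 0.316) became 0.17 without replicate 2 and -1.97 without replicate 3 (adjusted p = 0.0451). In treated males it was at 3.01, 3.39, 1.64 and 2.87 in dKO livers and at 3.20, 2.10, 2.75 and 2.74 in WT livers, a difference of 0.03 ± 0.81. In untreated females it was at 3.79, 4.31, 3.59 and 3.86 in dKO livers and at 3.65, 4.18, 3.12 and 3.82 in WT livers. The groups overlapped in all 3 settings, and every group overlapped its neighbour in the order of levels.

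The 2 Cyp7a1 probes described above gave different pictures in treated males. The values in the preceding paragraph are of the downstream, brighter probe. On the upstream probe, treated dKO males were at 0.01, 0.14, -1.82 and -0.46 and treated WT males at 0.61, 0.35, 0.70 and 0.50, so that all dKO arrays were below all WT arrays. The fitted differences were -1.07 on the upstream probe and 0.03 on the downstream probe, with adjusted p over all probes of 0.314 and 0.985. The mean of both probes gave -0.52. In the authors' deposited table the signed folds were -2.13 for the upstream and 1.08 for the downstream probe. A direction for Cyp7a1 in treated males therefore depended on the probe, and neither was called.

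**Figure D3:**
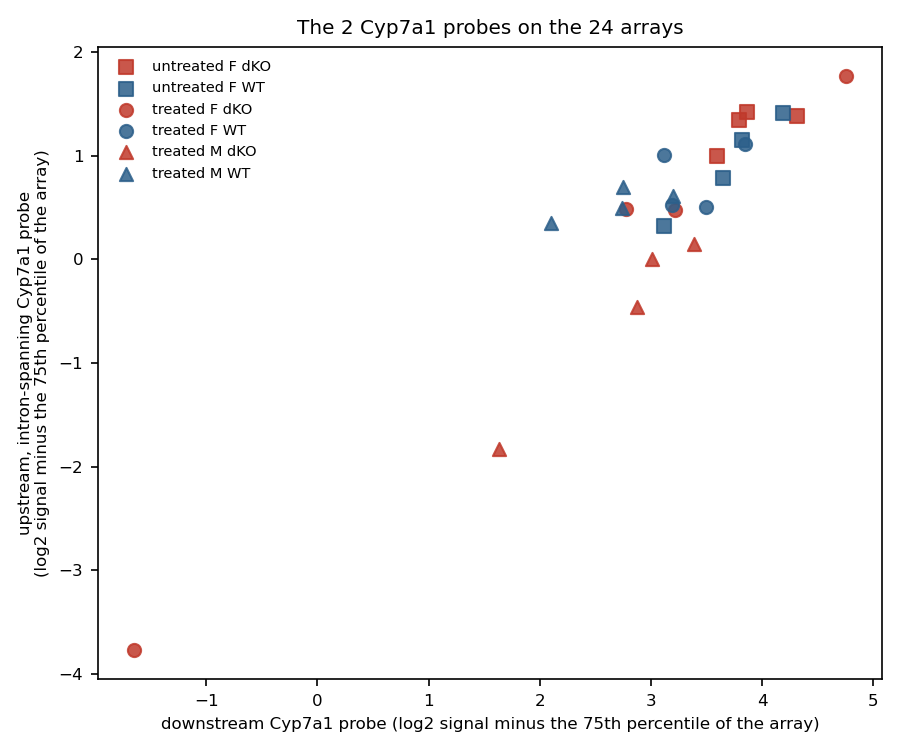
The upstream Cyp7a1 probe (vertical) against the downstream probe (horizontal), both as log2 signal minus the array's 75th percentile, on 24 arrays. Red symbols are dKO and blue WT livers. The probes order most arrays alike, while treated dKO males (red triangles) lie at or below 0.14 on the upstream probe and treated WT males (blue triangles) at or above 0.35.

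Cyp8b1, the enzyme that sets the share of cholic acid, was lower in treated dKO males. It stood at -0.56, -1.15, -1.73 and -1.01 in treated dKO males and at 2.06, -0.32, 1.76 and 1.42 in treated WT males. The groups did not overlap, and the difference was -2.34 ± 0.85 (adjusted p = 0.0488). The call was lost over 18 arrays (adjusted p = 0.241) and in 7 of 8 fits that left out 1 array of these groups. In treated females it was at 1.03, -4.05, 1.03 and 0.09 in dKO livers and at 1.23, 1.35, 0.23 and 1.09 in WT livers (-1.45 ± 0.85, adjusted p = 0.215). Without replicate 2 of the dKO livers that difference was -0.25 (adjusted p = 0.818). In untreated females it was at -0.25, -1.78, -1.10 and -0.99 in dKO livers and at 1.34, -1.28, 1.57 and 0.70 in WT livers (-1.62 ± 0.85, adjusted p = 0.252). The female groups overlapped in both settings.

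The RefSeq promoter of Cyp8b1 is shown for the nuclear receptor motifs near its start site, with that of Nr0b2 for comparison. Promoter windows of GRCm38.p6 were available for 6 of the members (7 windows). Capitals mark matches to CAAGGNCA (LRH-1 type) and, overlapping it in Cyp8b1, to CAAAGTCC (HNF4A type), searched on both strands. The 250 bases before the start are printed, for Cyp8b1 at chr9:121916306-121916555 on the minus strand and for Nr0b2 at chr4:133553126-133553375 on the plus strand.
Cyp8b1: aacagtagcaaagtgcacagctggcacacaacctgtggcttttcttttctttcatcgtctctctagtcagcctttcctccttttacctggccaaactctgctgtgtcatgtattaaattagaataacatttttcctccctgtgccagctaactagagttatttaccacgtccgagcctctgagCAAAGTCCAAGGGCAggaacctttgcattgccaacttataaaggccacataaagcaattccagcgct
Nr0b2: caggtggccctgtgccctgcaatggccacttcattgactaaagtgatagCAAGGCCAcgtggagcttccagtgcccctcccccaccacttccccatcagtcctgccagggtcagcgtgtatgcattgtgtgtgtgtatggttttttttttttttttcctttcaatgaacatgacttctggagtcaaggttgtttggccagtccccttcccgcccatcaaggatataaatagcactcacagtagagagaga
The LRH-1 type match begins at -60 in Cyp8b1 and at -201 in Nr0b2, and these were 2 of the 6 members with a window, against 6.71% of 32851 promoters. The HNF4A type match begins at -67 in Cyp8b1 alone of the 6, against 1.42% of promoters. The exact sequence TGTTTAC, a form of the forkhead motif, was in 0 of the 7 windows and in 3.65% of promoters. Variants of it were not searched, so the tatttac in the printed Cyp8b1 window was not counted. The half-site AGGTCA was in the window of Nr1h4, at -214, and in 16.3% of promoters. These are letters in a short window and say nothing of binding.

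Hsd3b7, the ring dehydrogenase that both pathways share, fell in treated dKO livers. In treated females it stood at 5.90, 4.70, 5.96 and 5.45 in dKO livers and at 6.57, 6.95, 6.48 and 6.66 in WT livers. Treated males stood at 5.25, 5.82, 5.57 and 5.59 in dKO livers and at 6.86, 6.36, 6.60 and 6.64 in WT livers. The groups did not overlap in either sex. It fell by 1.17 ± 0.20 in females (adjusted p = 0.000334, and 0.0246 over 18 arrays) and by 1.06 ± 0.20 in males (adjusted p = 0.000686, and 0.0286 over 18 arrays). Without treated dKO female replicate 2 the female difference was -0.90. With array position as a covariate the differences were -0.61 in females (adjusted p = 0.610) and -0.50 in males (adjusted p = 0.690). In untreated females the levels were 6.58, 6.19, 6.20 and 6.20 in dKO livers and 6.54, 6.43, 6.58 and 6.48 in WT livers, a difference of -0.22 that was not called.

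Acox2, the peroxisomal oxidase of side chain shortening, had the smallest spread and fell most clearly in males. In treated males it stood at 3.63, 3.79, 3.83 and 3.78 in dKO livers and at 4.83, 4.50, 4.61 and 4.65 in WT livers. Treated females stood at 3.85, 4.14, 4.13 and 4.04 in dKO livers and at 4.55, 4.56, 4.50 and 4.49 in WT livers. The groups did not overlap in either sex. It fell by 0.89 ± 0.09 in males (adjusted p = 4.21e-07, and 0.000717 over 18 arrays) and by 0.49 ± 0.09 in females (adjusted p = 0.0004, and 0.0282 over 18 arrays). It was the 1 male call left with array position as a covariate (-0.79, adjusted p = 0.0477), while the female value was then -0.39 (adjusted p = 0.434). In untreated females it was at 4.06, 4.21, 4.12 and 4.16 in dKO livers and at 4.00, 4.28, 4.23 and 4.11 in WT livers, and the groups overlapped. It was the member that replicate 2 of the treated dKO females did not lower: that array was its group's highest.

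Slc27a5, the ligase that activates bile acids with coenzyme A, was lower in treated dKO females, at 6.40, 4.27, 6.92 and 6.02, against 6.85 to 7.01 on the 4 arrays of treated WT females. The groups overlapped, and the difference of -1.05 ± 0.33 (adjusted p = 0.0222) was -0.51 without replicate 2 (adjusted p = 0.0295). It was not called over 18 arrays (adjusted p = 0.156). In treated males it was at 6.46, 6.71, 6.50 and 6.56 in dKO livers and at 6.47, 6.44, 6.62 and 6.42 in WT livers. Males of both genotypes lay together and below the WT females.

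Baat, which transfers taurine or glycine, was not called for genotype on its brighter probe. Levels in treated females were 4.87, 4.09, 5.23 and 4.62 in dKO livers and at 5.04, 5.21, 5.11 and 5.10 in WT livers (-0.41, adjusted p = 0.0574). Without replicate 2 of the dKO livers it was -0.21 (adjusted p = 0.262), and without replicate 3 it was -0.58 (adjusted p = 0.00305). Its other probe gave -0.48 (adjusted p over probes = 0.0198). In untreated females the dKO livers, at 5.33, 5.35, 5.28 and 5.28, were all above the WT livers, at 5.10, 5.21, 4.82 and 5.05, but the difference of 0.26 was not called (adjusted p = 0.328).

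Nr1h4, which encodes FXR, was lower in treated dKO females over 24 arrays. It stood at 4.21, 2.88, 4.76 and 3.70 in dKO livers and at 4.80, 4.84, 4.60 and 4.70 in WT livers, and 1 dKO array lay within the WT range. The difference of -0.85 ± 0.25 (adjusted p = 0.0155) was not called over 18 arrays (-0.80, adjusted p = 0.160) or without replicate 2 (-0.51, adjusted p = 0.0595). Levels in treated males were 4.53, 4.88, 4.43 and 4.81 in dKO livers and at 4.86, 4.15, 4.27 and 4.51 in WT livers, and in untreated females both genotypes lay between 4.72 and 4.92. Outside the treated dKO females the 5 groups overlapped their neighbours throughout.

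Nr0b2, which encodes SHP, was near the level of the 75th percentile in all groups. Its levels in treated females were -0.34, -0.85, -0.50 and -0.52 in dKO livers and at 0.56, 0.11, 0.24 and 0.38 in WT livers, without overlap. The difference of -0.88 ± 0.26 (adjusted p = 0.0169) was not called over 18 arrays (adjusted p = 0.149) or without treated dKO female replicate 2 (-0.78, adjusted p = 0.0597) or treated WT female replicate 1 (-0.80, adjusted p = 0.0524). Its levels in treated males were -0.86, -0.74, -0.01 and -0.49 in dKO livers and at 0.09, -0.29, -0.35 and -0.25 in WT livers. In untreated females it ranged from -0.56 to 0.65 in dKO livers and from -0.52 to 0.95 in WT livers.

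Treatment with DEN and TCPOBOP was compared with no treatment in females. In WT females 1 of 10 members was called higher and 0 lower over 24 arrays, where 8.47% of all genes were called higher and 8.72% lower. That member was Acox2, at 4.55, 4.56, 4.50 and 4.49 in treated against 4.00, 4.28, 4.23 and 4.11 in untreated livers (0.37, adjusted p = 0.0067), which was not called over 18 arrays (adjusted p = 0.136). In dKO females 5 of 10 were called lower and 0 higher, where 21.5% of all genes were called lower and 16.3% higher. These were Hsd3b7 (-0.79, adjusted p = 0.00516), Baat (-0.61, adjusted p = 0.00563), Nr1h4 (-0.92, adjusted p = 0.00743), Slc27a5 (-1.12, adjusted p = 0.0124) and Nr0b2 (-0.69, adjusted p = 0.0445). Treated and untreated livers did not overlap for Hsd3b7 and Baat. With array position as a covariate, 0 of these 5 calls were left. Over 18 arrays limma called 0 members in either genotype (4 in dKO and 1 in WT females at an unadjusted p under 0.05), with adjusted p of 0.0714 to 0.202 for these 5, while 7.17% of all genes were still called lower in dKO females. Without treated dKO female replicate 2 the differences were smaller, at -0.52 for Hsd3b7, -0.40 for Baat, -0.57 for Slc27a5 and -0.58 for Nr1h4, all still called. That of Nr0b2 was then -0.59 (adjusted p = 0.127), and its call was lost in 6 of 8 fits that left out 1 array of these groups. Cyp27a1, Cyp7b1 and Cyp8b1 were not called in either genotype over 24 arrays. Without replicate 2 of the treated dKO females, however, Cyp8b1 was called higher in treated dKO females, by 1.75 (adjusted p = 0.0353). Cyp7a1 differed by -1.61 in dKO females (adjusted p = 0.126). That value was -0.31 without replicate 2 of the treated dKO females (adjusted p = 0.632) and -2.44 without replicate 3 (adjusted p = 0.0127).

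Sex was compared in treated mice. In WT livers 0 of 10 members were called in either direction by limma, and 1 had an unadjusted p under 0.05, where 3.27% of all genes were called higher in males and 2.85% lower. That member was Cyp7b1, with all males above all females (0.71, adjusted p = 0.107). In dKO livers 2 of 10 were called higher in males and 1 lower, where 12.4% of all genes were called higher and 8.05% lower. Cyp7b1 was higher by 1.46 (adjusted p = 0.000687) and Nr1h4 by 0.77 (adjusted p = 0.0347), and Acox2 differed by -0.28 (adjusted p = 0.0277). Males and females did not overlap for Cyp7b1 and Acox2. Over 18 arrays limma called 0, with 2 at an unadjusted p under 0.05 and with adjusted p of 0.0509 for Cyp7b1, 0.303 for Nr1h4 and 0.228 for Acox2. Without treated dKO female replicate 2 the Nr1h4 difference was 0.44 (adjusted p = 0.139) and that of Acox2 -0.25 (adjusted p = 0.0842). With slide as a fixed block, 1 of the 3 calls was left: Cyp7b1 (1.49, adjusted p = 0.00291), but neither Nr1h4 (adjusted p = 0.0982) nor Acox2 (adjusted p = 0.0585). Within the 2 slides that held both sexes, Cyp7b1 was higher in males on both and Nr1h4 on 1. Without treated dKO female replicate 3, Cyp27a1 (1.04, adjusted p = 0.0190), Slc27a5 (0.99, adjusted p = 0.0190) and Baat (0.42, adjusted p = 0.0268) were called higher in males. Without treated dKO female replicate 2 those differences were 0.46, 0.11 and 0.05 (adjusted p = 0.273, 0.732 and 0.855). Cyp27a1 was also called without replicate 1 of the treated dKO females or replicate 3 of the treated dKO males. The Nr1h4 and Acox2 calls were each lost in 4 of 8 fits that left out 1 array.

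The differences between comparisons were tested as interactions. The sex by genotype term called 1 of 10 members over 24 arrays, where 12.6% of all genes were called, and the treatment by genotype term 1 of 10, where 5.08% were. Both were Acox2: its genotype difference was larger in treated males than in treated females (interaction -0.40, adjusted p = 0.0377), and in treated than in untreated females (interaction -0.47, adjusted p = 0.0325). Neither was called over 18 arrays, with adjusted p of 0.317 and 0.409. The sex by genotype call was also lost with slide as a fixed block (adjusted p = 0.0589) and in 11 of 16 fits that left out 1 array, and the treatment by genotype call in 9 of 16. Without treated dKO female replicate 2 the sex by genotype term of Acox2 was -0.37 (adjusted p = 0.0727). Its treatment by genotype term was then -0.50 (adjusted p = 0.0307). For Nr1h4 the sex by genotype term was 1.06 (adjusted p = 0.0544) and for Hsd3b7 the treatment by genotype term was -0.95 (adjusted p = 0.0598). Without treated dKO female replicate 3 the sex by genotype term was called for Nr1h4 (1.35), Slc27a5 (1.46) and Baat (0.57), and the treatment by genotype term for Hsd3b7 (-1.10), Baat (-0.85), Slc27a5 (-1.28) and Nr1h4 (-1.13). Without replicate 2 of those females none of these terms was called. The sex by genotype terms were then 0.73 for Nr1h4, 0.58 for Slc27a5 and 0.20 for Baat. The treatment by genotype terms were -0.68 for Hsd3b7, -0.47 for Baat, -0.40 for Slc27a5 and -0.50 for Nr1h4. For Cyp27a1, whose difference was largest in treated females, neither interaction was called. The Baat values above are of its brighter probe, whose treatment by genotype term was -0.67 in limma over 24 arrays (adjusted p = 0.084). That term was -0.77 on the other Baat probe (adjusted p over probes = 0.0398) and -0.72 for the mean of its probes (adjusted p = 0.0434).

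Other genes of the pathway were also lower in treated dKO livers. Of 27 further genes of synthesis and conjugation, 15 were called lower and 1 higher in treated females, 9 lower and 1 higher in treated males, and 3 lower and 0 higher in untreated females. Over all genes the shares called lower were 16.3%, 10.8% and 4.59%, and those called higher 13.5%, 14.5% and 5.16%. Over 18 arrays the counts called lower by limma were 5, 4 and 0, beside 16, 9 and 5 in either direction at an unadjusted p under 0.05. The 18-array shares of all genes called lower were 3.43%, 4.36% and 0.69%, and those called higher 4.53%, 6.22% and 0.918%. Counts of the lists below are to be read against the shares of the same fit. Their median differences were -0.63, -0.35 and -0.26. In treated females Sult2a8, a bile acid sulfotransferase, fell by 3.82 (adjusted p = 4.25e-06), with dKO livers at 0.24 to 3.31 and WT livers at 5.22 to 5.80. Cyp2c70, which makes muricholic acids in mice, fell by 1.43 in treated females and by 1.30 in treated males. Fdx1, the ferredoxin that supplies electrons to Cyp27a1, fell by 0.79 in treated females and by 0.70 in treated males. Scp2, the sterol carrier and thiolase of side chain shortening, fell by 0.63 in treated females, and Hsd17b4, the multifunctional enzyme of that route, by 0.70 in treated males. Ephx1, an epoxide hydrolase linked to bile acid uptake, fell by 1.75 in treated males.

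Of 16 transporters of bile acids and bile lipids, 9 were called lower and 1 higher in treated females, 5 lower and 0 higher in treated males, and 2 lower and 1 higher in untreated females. Over 18 arrays the counts called lower were 4, 3 and 1, where 3.43%, 4.36% and 0.69% of all genes were called lower. Slco1a1, an uptake carrier of the sinusoidal membrane, was not well above background on any untreated dKO array and was at least 131-fold lower there than in untreated WT livers (adjusted p = 5.38e-06). Abcb11, the bile salt export pump, fell by 1.13 in treated females, at 5.21 to 6.67 in dKO livers and 7.07 to 7.64 in WT livers. Abcc2, a canalicular exporter of conjugates, fell by 0.57 in treated females and by 0.73 in treated males. Abcc4, a basolateral exporter, fell by 3.63 in treated males, at -0.87 to 0.51 in dKO livers and 3.22 to 3.81 in WT livers.

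Among 35 further regulators of the pathway, 9 were called lower and 4 higher in treated females, 0 lower and 11 higher in treated males, and 0 in untreated females. Over all genes 16.3% were called lower and 13.5% higher in treated females, and 10.8% lower and 14.5% higher in treated males. Over 18 arrays 1 was called lower and 2 higher in treated females, where 3.43% of all genes were called lower and 4.53% higher. In treated males 1 was called higher over 18 arrays, where 6.22% of all genes were. That 1 was Gata6, a zinc finger factor, which rose by 1.52 in treated dKO males, at 1.06 to 1.35 against -0.72 to -0.08 in WT males. Fgf21, a fasting-induced hormone, rose by 4.64 in treated dKO females, at 0.38 to 4.83 against -2.76 to -1.92. Vdr, the vitamin D receptor, which also binds lithocholic acid, was not well above background on any WT array of either treated sex. It was at least 4.43-fold higher in treated dKO females and at least 3.08-fold higher in treated dKO males, the second of which was not called over 18 arrays (adjusted p = 0.0574).

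FXR target genes other than Nr0b2 did not move one way. Of 16 measured, 4 were called lower and 2 higher in treated females, 0 lower and 1 higher in treated males, and 1 lower and 1 higher in untreated females. In treated females 16.3% of all genes were called lower and 13.5% higher, so the count of higher genes was near the background. Over 18 arrays limma called 0 in treated males and untreated females, where 1 and 4 had an unadjusted p under 0.05. In treated females it called 3 lower over 18 arrays, where 3.43% of all genes were called lower. These 3 were Abcb11, which also stands among the transporters, Ugt2b1 (-1.79), a glucuronosyltransferase, and Mafg (-0.58), a repressor of Cyp8b1 downstream of FXR. Median differences of the list were -0.30 in treated females, -0.06 in treated males and -0.07 in untreated females.

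**Figure D4:**
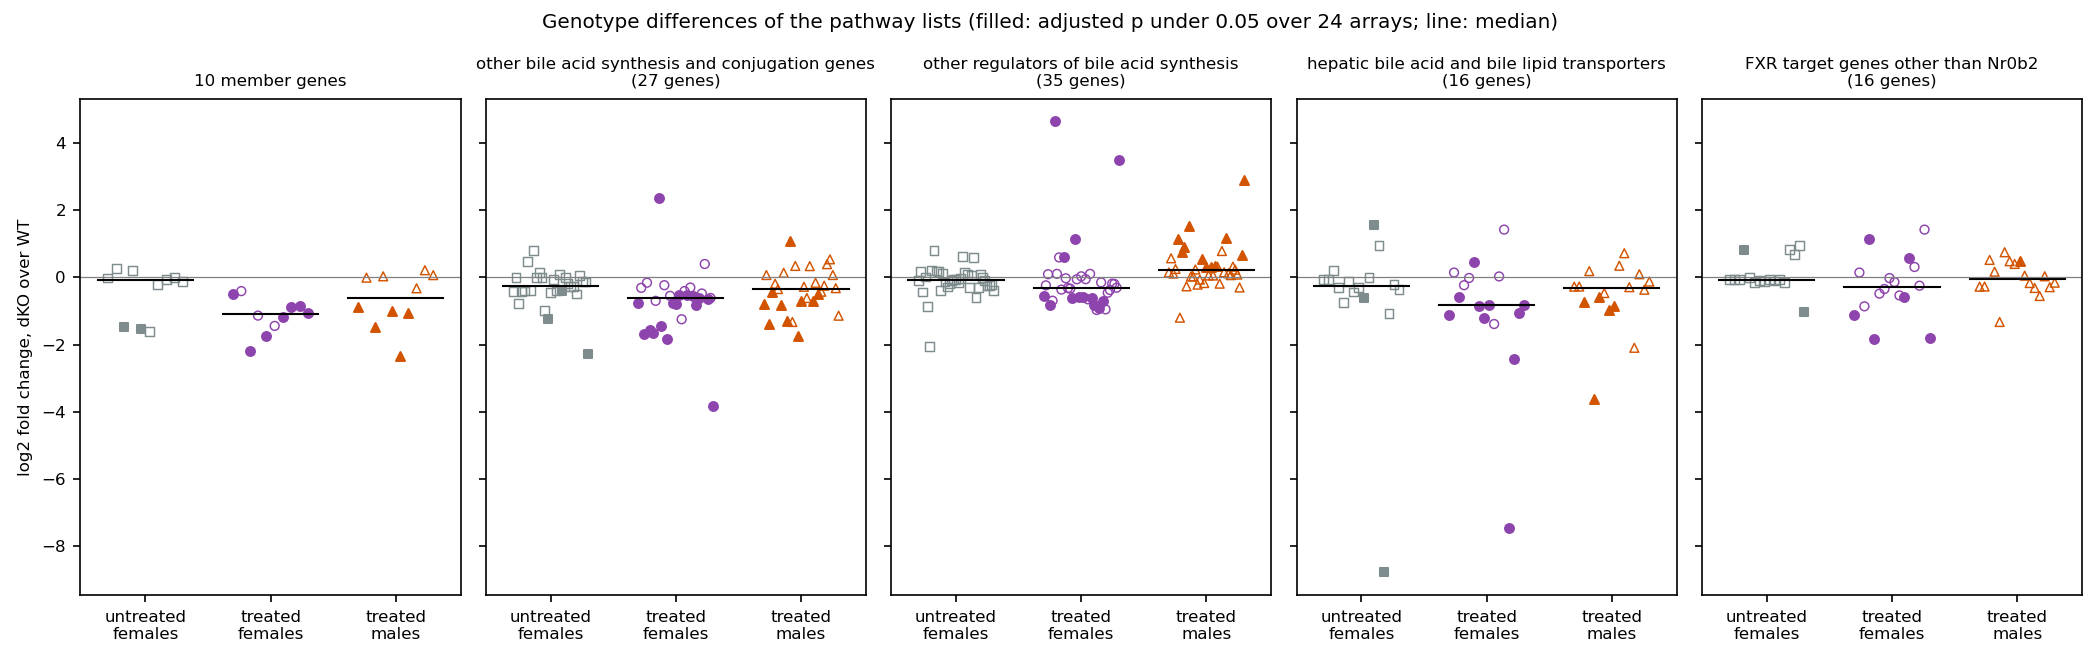
Log2 fold changes, dKO over WT, of the 10 members and of the 4 further lists for untreated females and for treated mice of each sex. Each symbol is a gene, filled where called over 24 arrays, and lines are medians, which in treated females are -1.10 for the members and -0.63 for the other synthesis genes.

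Markers of cell types moved with genotype beside these genes. The mean of 16 hepatocyte markers ranged from 5.30 to 7.05 in treated dKO females and from 7.04 to 7.19 in treated WT females, and 7 of the 16 were called lower and 0 higher. In treated males the ranges were 6.80 to 7.25 in dKO livers and 6.75 to 7.08 in WT livers, with 1 called lower. The mean of 14 bile duct markers was -1.05 to 0.02 in treated dKO females against -2.85 to -2.12 in treated WT females, and -0.78 to -0.19 in treated dKO males against -3.12 to -2.36 in treated WT males. Of these 14, 11 were called higher in treated females, 10 in treated males and 7 in untreated females. The mean of 12 stellate and fibroblast markers was 1.11 to 2.01 in treated dKO females against -0.10 to 0.32 in treated WT females. The mean of 10 dividing-cell markers was -1.97 to 0.60 in treated dKO females against -3.06 to -2.24 in treated WT females, with 9 called higher, and its highest value was that of replicate 2. In treated males it went the other way, at -2.69 to -1.57 in dKO livers against -0.75 to -0.69 in WT livers, with 7 of the 10 called lower and 0 higher. The part of these shifts in the members' differences was not tested.

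**Figure D5:**
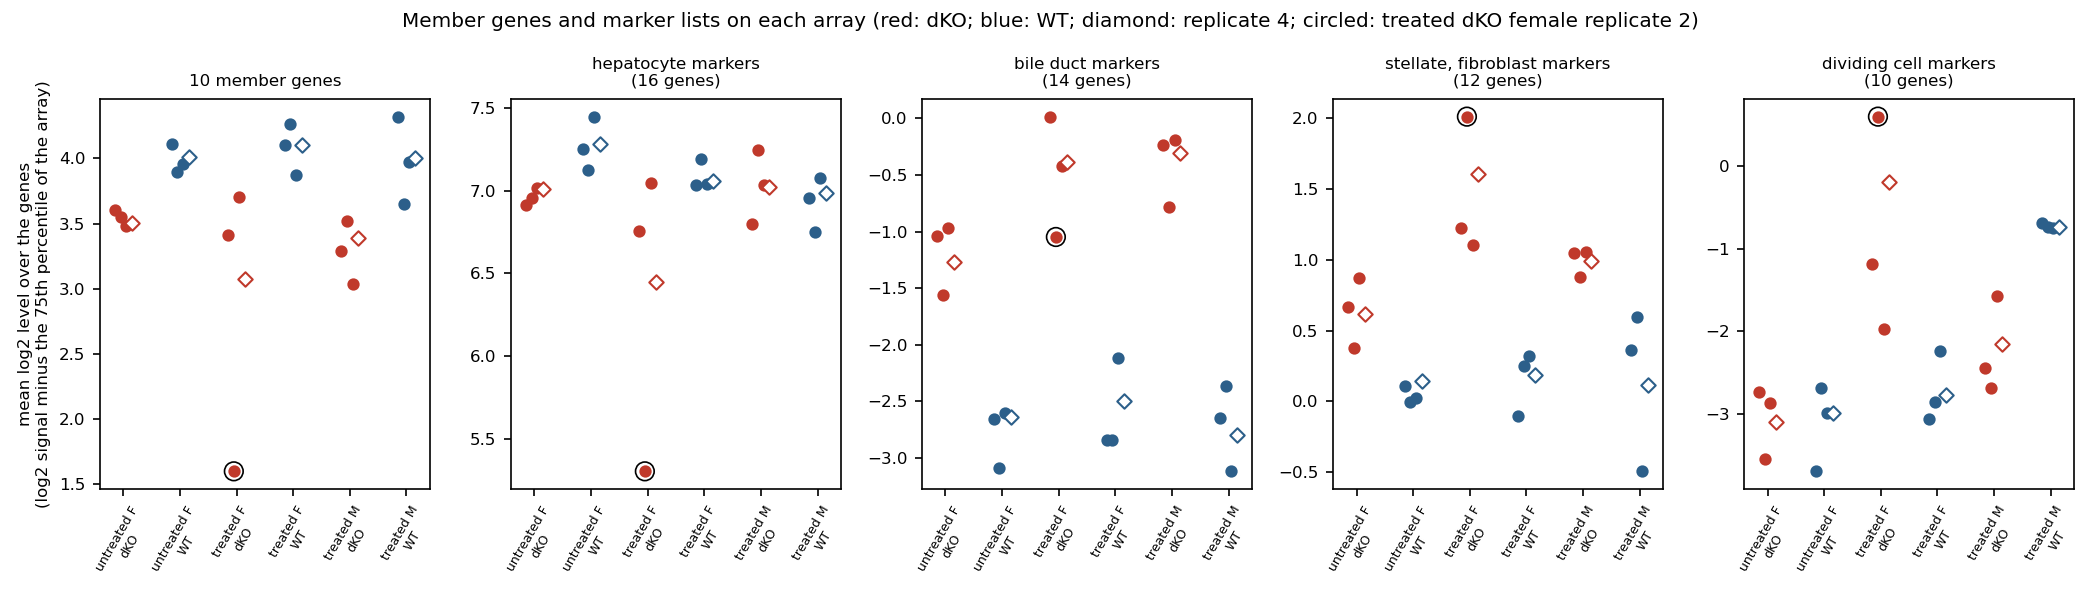
Mean log2 level per array of the 10 members and of hepatocyte, bile duct, stellate and dividing-cell markers, by group. Red is dKO and blue WT, diamonds are replicate 4 and the circle marks treated dKO female replicate 2, whose hepatocyte mean is 5.30.

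Some pairs of members varied alike over the 24 arrays, which share groups, slides and replicate 4 as described. No grouping of the members was computed. Cyp7b1 and Cyp27a1 correlated at r = 0.89, Slc27a5 and Nr1h4 at 0.90, and Cyp7a1 and Slc27a5 at 0.90. Around the group means and without treated dKO female replicate 2 these were 0.69, 0.62 and 0.61. By that measure Baat and Slc27a5 stood at 0.81, Baat and Nr1h4 at 0.79, and Cyp7a1 and Cyp27a1 at 0.77. The lowest pair was Cyp27a1 and Nr0b2, at -0.51. Among 13525 other genes bright on all arrays, those most like Cyp27a1 were Aox3 (0.96), Rad23b (0.92) and Fdx1 (0.92). Those most like Cyp7a1 were Hpd (0.92), Slc10a1 (0.91) and Gnmt (0.90). Magix, Otc and Car5a were most like Slc27a5, at 0.97 to 0.98, and Tle2, Ahcy and Proz most like Nr1h4, at 0.95 to 0.96. These likenesses are over all 24 arrays with treated dKO female replicate 2 included, and no values without it are given.

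The authors' deposited table gave a signed fold for the same members and comparisons. Of 70 values, 64 had the sign found here, and of the 23 called over 24 arrays all 23 did. The table is of the same series and was matched by probe, so this count is not independent evidence. Its sex comparisons run female over male and were turned before this count.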

How the data were processed

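Mouse liver RNA was amplified, labelled with Cy3 and hybridised to 24 single-colour Agilent arrays (6 slides of 4). Feature Extraction 10.5.1.1 made the spot intensities, per the file headers, while the submitters' processing notes name version 9.53. The deposited files give each spot's processed intensity, its mean and its local background. A further table by the authors lists a signed fold score for every comparison, and no source used states its test or normalization.

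Outlier spots, 72 to 127 on an array, were dropped, and log2 processed signals had the array's 75th percentile subtracted, with no pseudocount. Probes well above background on at least 4 arrays were kept (28048), and the brightest stood for its gene (19287 genes). The share of spots well above background ran from 50.4% to 68.4%, and no spot was saturated. Treated dKO females had the highest mean share, 67.2%, beside 60.6% for treated WT females and 62.1% for treated dKO males. Their slopes of the spike-in controls were low as well, spanning 0.922 to 0.985, with the lowest on replicate 2. Treated WT females spanned 0.988 to 1.018, treated dKO males 0.955 to 1.006 and treated WT males 0.987 to 1.018. The part of this in the members' differences was not tested. The number of arrays limits the precision. Positions of probes follow the files and are in mm9.

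Differences came from limma 3.58.1 (R 4.3.3, data.table version 1.17.8), with 6 group means over 24 arrays, eBayes, and Benjamini-Hochberg adjustment within each of 7 pairwise comparisons and 2 interactions. The procedure was tested on simulated data with independent arrays, without slide effects and without a replicate 4 close to a mixture of the others. That test therefore does not bear on p-values under those conditions. The alternatives were 13 other settings, each array left out in turn and, added after the data were seen, replicates 1 to 3 only. Replicate numbers shared by groups did not pair samples (mean correlation of deviations -0.01 over 60 pairs, 10 of them over the limit set for pairing). Arrays of the same slide did deviate together (mean correlation 0.142, 22 of 36 pairs over that limit), and slide was fitted as a fixed and as a random block. Named list genes were the up to 4 with the smallest adjusted p per list and comparison. Members and lists were chosen with earlier results of these data known. Figures were drawn with Python 3.11.15, pandas 2.3.3 and matplotlib 3.10.9.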

Additional observations from a re-analysis of the deposited data

Results flagged for a closer look

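A single array lay far from the other 3 of its group in 3 of 60 combinations of member and group, and chance flags about 1 in 20. Cyp7b1 was highest in treated WT female replicate 2, at 4.50. Cyp27a1 was lowest in treated dKO male replicate 3, at 1.72. Hsd3b7 was highest in untreated dKO female replicate 1, at 6.58. Replicate 4, which lies close to a mixture of the others, counts as 1 of the 4 arrays in each of these.

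Acox2 differed between groups by a test of the difference itself. The sex by genotype interaction was -0.40 and the treatment by genotype interaction in females was -0.47, both called over 24 arrays and neither over 18.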

How the results depend on the processing

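Of 90 member results, 25 were called over 24 arrays and 65 were not. None of the 25 changed sign under any setting run. Of the 25, the calls lost were 18 over replicates 1 to 3 and 18 with array position as a covariate, 11 with only the groups compared, 7 with normexp background, 6 with no filter on dim probes, 4 with slide as a fixed block, 3 with median centring, 2 with quantile normalization and 1 with the replicate block. The losses were 0 when probes had to be bright on all 24 arrays, for the mean of a gene's probes, slide as a random block, trend and robust variances, or outlier spots kept. Of the 65 results not called, 16 were called under some setting. The fits of replicates 1 to 3 and of only the groups compared hold fewer arrays by construction, and for the other settings the cause was not tested. Probes not well above background have only a bound.

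The counts of members called over 24 arrays were 2, 7 and 5 for dKO over WT (untreated females, treated females, treated males), 1 with treatment in WT and 5 in dKO females, 0 for sex in WT and 3 in dKO mice, 1 for sex by genotype and 1 for treatment by genotype. Over replicates 1 to 3 (added after the data were seen) they were 0, 4, 3, 0, 0, 0, 0, 0 and 0 in that order. With normexp background, treatment in WT females called 0, sex in dKO mice 1, sex by genotype 0 and treatment by genotype 0. Median centring gave 0 for treatment in WT females and 0 for treatment by genotype. No filter on dim probes gave 1 for sex in dKO mice, 0 for sex by genotype and 0 for treatment by genotype. The filter on all 24 arrays gave 2 for sex by genotype and 2 for treatment by genotype, as did trend and robust variances (2 and 2). The mean of the probes of a gene gave 2 for treatment by genotype, and slide as a random block 2. With only the groups compared, treatment in dKO females called 0, sex in WT mice 1, sex in dKO mice 1, sex by genotype 0 and treatment by genotype 0. Slide as a fixed block gave 1 for sex in dKO mice, 0 for sex by genotype and 3 for treatment by genotype. With array position, treated females called 0, treated males 1, treatment in dKO females 0 and treatment by genotype 0. Leaving out 1 array at a time gave 2 to 2 in untreated females, 5 to 9 in treated females, 4 to 5 in treated males, 1 to 1 for treatment in WT and 4 to 5 in dKO females, 0 to 0 for sex in WT and 1 to 6 in dKO mice, 0 to 4 for sex by genotype and 0 to 5 for treatment by genotype.

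Replicate numbers did not pair the samples. With the replicate block, sex by genotype called 0 members in place of 1, and no other count of members called moved by over 1.5 times.

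Of the results not called, 27 changed sign under some setting. In untreated females (dKO over WT), Acox2 was 0.031 with normexp background, 0.11 with quantile normalization, 0.00087 with array position, and -0.071 to 0.023 when arrays were left out 1 at a time. Nr1h4 there was 0.0066 with normexp background, 0.13 with quantile normalization, 0.063 with slide as a fixed block, 0.0044 with slide as a random block, 0.0058 with array position, 0.0050 over replicates 1 to 3, and -0.052 to 0.014 with arrays left out. Slc27a5 there was 0.053 with slide as a fixed block, while Nr0b2 -0.30 to 0.18 with arrays left out. In treated males (dKO over WT), Cyp7a1 was -0.11 with median centring, -0.52 with the mean of the probes of a gene, -0.22 with a fixed and -0.027 with a random slide block, -0.29 with array position, -0.0030 over replicates 1 to 3, and -0.19 to 0.39 with arrays left out. Slc27a5 there was -0.076 with median centring and -0.028 with slide as a fixed block. Baat there was 0.035 with quantile normalization, 0.16 with array position, and -0.077 to 0.058 with arrays left out. Cyp7a1 in treated females was -1.97 to 0.17 with arrays left out.

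With treatment in WT females, Baat was -0.013 with normexp background, -0.026 with median centring, and -0.0083 to 0.12 with arrays left out. Nr1h4 there was 0.070 with quantile normalization and 0.029 with slide as a fixed block, under which Cyp7a1 was 0.12 and Slc27a5 0.029. Hsd3b7 there was -0.0043 with array position. Leaving arrays out gave -0.23 to 0.72 for Cyp8b1, -0.12 to 0.37 for Nr0b2 and -0.11 to 0.21 for Cyp7b1. In dKO females, Acox2 was 0.12 with quantile normalization, and Cyp7b1 -0.36 to 0.098 with arrays left out.

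For sex in treated WT mice, Hsd3b7 was 0.030 with normexp background and -0.14 to 0.038 with arrays left out, Cyp8b1 -0.020 to 0.77 and Cyp27a1 -0.018 to 0.27. In treated dKO mice, Hsd3b7 was -0.11 with quantile normalization, -0.055 with array position, -0.016 with slide as a fixed block, and -0.21 to 0.21 with arrays left out. Nr0b2 there was -0.021 with median centring and -0.14 to 0.14 with arrays left out, and Cyp7a1 -0.86 to 1.28. For sex by genotype, Hsd3b7 was -0.028 with normexp background, -0.10 with quantile normalization, and -0.16 to 0.26 with arrays left out, and Cyp7a1 -0.14 to 1.996. For treatment by genotype, Cyp8b1 was -0.0015 over replicates 1 to 3 and -0.33 to 1.36 with arrays left out.

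Counts over all genes were 1882, 5737, 4875, 3315, 7287, 1179, 3950, 2424 and 980 over 24 arrays, in the order of comparisons above, and 310, 1536, 2041, 405, 2536, 77, 481, 0 and 7 in limma over replicates 1 to 3, where 2887 genes had an unadjusted p under 0.05 for sex by genotype. Normexp background called 726 in untreated females, 2564 in treated males, 1885 for treatment in WT females, 517 and 2265 for sex in WT and dKO mice, 1319 for sex by genotype and 414 for treatment by genotype. Without a filter the 2 interactions called 1585 and 564. With only the groups compared the counts were 2828 in untreated and 2098 in treated females, 4351 for treatment in dKO females, 1141 for sex in dKO mice, and 1420 and 474 for the interactions. Slide as a fixed block called 1194 in untreated females and 1489 for treatment by genotype. Array position called 43 in treated females, 208 in treated males, 2401 for treatment in dKO females and 4 for treatment by genotype. Of the calls, 24.69% were higher in treated females with normexp background, against 45.34% over 24 arrays. With median centring the share was 36.52% in treated males (57.27% over 24 arrays), 35.2% for treatment in WT females (49.29%), 49.1% for sex in dKO mice (60.71%) and 39.93% for sex by genotype (58.25%).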

Other observations

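The pathway lists also differed with treatment. In dKO females 20 of 27 further synthesis genes were called lower in treated than in untreated livers and 2 higher (11 lower and 1 higher over 18 arrays), and in WT females 8 were called lower and 0 higher (1 lower over 18 arrays). Over all genes, 21.5% were called lower and 16.3% higher in dKO females, and 8.72% lower and 8.47% higher in WT females. Over 18 arrays these shares were 7.17% lower and 5.98% higher in dKO females, and 1% lower and 1.1% higher in WT females. Scp2 fell by 0.73 and Acnat1, an acyltransferase of peroxisomes, by 0.86 in treated dKO females. Ch25h, a cholesterol hydroxylase, rose by 2.99 there. Abcb4, which flips phosphatidylcholine into bile, fell by 0.90 in treated dKO females and by 1.11 in treated WT females. Abcc4 rose by 3.08 in treated dKO females and by 2.34 in treated WT females. The nuclear receptor genes Nr1i2 and Ppara fell by 1.53 and 1.49 in treated dKO females.

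Between the sexes, 7 of 27 further synthesis genes were called higher in males of treated dKO mice and 0 lower, against 0 higher and 1 lower in treated WT mice (1 higher and 0 lower in treated dKO, and 0 in treated WT mice, over 18 arrays). Over all genes, 12.4% were called higher and 8.05% lower in treated dKO males, and 3.27% higher and 2.85% lower in treated WT males. Over 18 arrays these shares were 1.7% higher and 0.793% lower in treated dKO males, and 0.218% higher and 0.181% lower in treated WT males. Egfr rose by 2.72 in treated dKO males relative to dKO females, Ugt2b1 by 2.23 and Sult2a8 by 2.54. Slco1a1 was higher by 5.73 in treated dKO males than in treated dKO females, where it was well above background on 2 of 4 arrays. Abcc4 fell by 3.03 in that comparison.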
